A study of Mus musculus with 42 samples.

Results

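Untreated mouse macrophages collected after 2 h of culture were compared with untreated macrophages collected at 0 h. The 12 libraries of the comparison were every library labelled Control at those times, out of 42 in the series, namely 6 from 2 h and 6 from 0 h, and at each time 3 came from wild-type cells and 3 from cells labelled as knock-out for Irf5. The cells were bone marrow-derived macrophages, grown from femur and tibia marrow of male mice in medium conditioned by L929 fibroblasts, a source of macrophage colony-stimulating factor. The KO cells came from mice with floxed Irf5 alleles and Cre recombinase driven by the LysM (Lyz2) locus, so recombination was limited to cells that use that promoter. Both engineered lines were on a C57BL/6 background, and the donors were young adults per the study's methods; the genotype of the WT mice at these loci was not given in the sources used here. What was done to the Control cells between 0 h and 2 h was not given either. Nothing in the labels ties a culture to a mouse, so the p-values measure the spread between libraries of a group, which may be partly technical. In the main fit that spread was estimated over all 42 libraries, other treatments included. A time effect and an effect of the collection day or of handling cannot be told apart with these labels.

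When macrophages are moved, fed or touched by a stimulus, the first genes to respond are those whose transcription factors are already present in the cell. Immediate early genes such as Fos, Egr1 and the Nr4a receptors are switched on by SRF and CREB within minutes, and their products drive later genes. NF-kappaB releases from its inhibitors and induces both cytokines (Tnf, Il1b, Cxcl2) and the inhibitors that end the response (Nfkbia, Tnfaip3). TGF-beta and BMP ligands act through receptor kinases and Smad proteins, and their quickest targets include the inhibitory Smads, the Id proteins and the Ski family, which damp the same pathway. PPAR receptors bind fatty acids and keep up genes of lipid storage and oxidation.

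The 12 libraries held between 4979807 and 7743442 counts, so 3 counts in a library corresponded to between 0.387 and 0.602 CPM (counts scaled to library size), and levels near that value rest on a few reads. Levels are given as CPM after TMM scaling, and changes as log2 fold changes ± SE from edgeR's quasi-likelihood test, with p-values adjusted over the 11624 genes tested. Calls use an adjusted p threshold of 0.05. The targeted gene did not mark the knock-out: Irf5 stood at 210, 230 and 222 CPM in the WT and 307, 279 and 328 CPM in the KO-labelled 0 h libraries, and at 250, 245 and 259 CPM against 291, 301 and 309 CPM at 2 h. A gene-level count cannot show the loss of a floxed exon, so these values do not check the label. Lyz2, the lysozyme gene whose locus carries the Cre, was between 5377 and 8766 CPM in the KO-labelled and between 10146 and 10238 CPM in the WT libraries at 0 h. The macrophage markers, Lyz2 among them, summed to between 15430 and 21749 CPM in every library. The sums were between 21447 and 21749 CPM in WT 0 h and between 20156 and 20692 CPM in WT 2 h libraries. In KO-labelled libraries they were between 15613 and 19520 CPM at 0 h and between 15430 and 16382 CPM at 2 h. Every KO-labelled library thus lay below every WT library. Fibroblast markers summed to between 1.09 and 1.74 CPM in the WT 0 h libraries but to between 44.0 and 81.5 CPM in the KO-labelled 0 h, between 79.4 and 131.9 CPM in the KO-labelled 2 h and 65.8 CPM in WT 2 h library 2, the highest of the WT 2 h libraries, whose lowest was 2.52 CPM. On the first principal component, which carried 27.3% of the variance, the WT 0 h libraries lay between -26.13 and -23.83 and all others above -6.35. On the second, with 20.8%, the KO-labelled 0 h libraries lay between 18.41 and 23.17 and all others at or under 5.81. The 0 h libraries of each genotype thus stood apart from the rest, on different components.

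Within this comparison 1942 of 11624 genes were called, or 16.7% of those tested. Of these, 1087 (9.35%) were higher and 855 (7.36%) lower at 2 h. The larger changes were mostly upward, since 189 of the higher genes (1.63% of all tested) but 21 of the lower genes (0.181%) changed by at least 2-fold on the fitted scale. All 6 libraries of 2 h lay above all 6 of 0 h for 547 genes (4.71%) and below them for 291 (2.5%), or 7.21% in either direction. The median log2 fold change over all genes was -0.01.

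**Figure D1:**
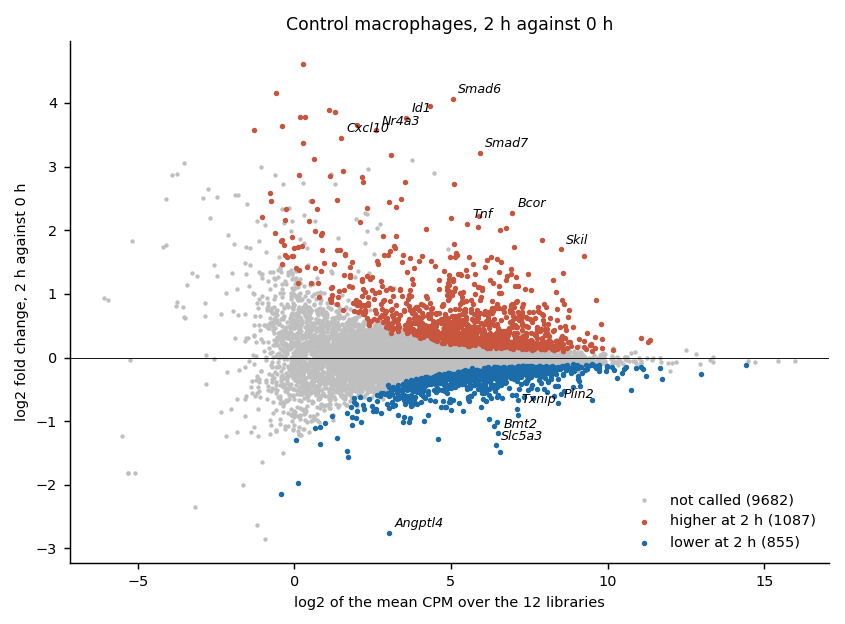
Log2 fold change of 2 h against 0 h (vertical axis) against log2 of the mean CPM over the 12 libraries (horizontal axis) for the genes tested, 1 of which had no counts in these libraries and is not drawn. The 1087 genes higher at 2 h (red) reach log2 changes above 4 while the 855 lower genes (blue) mostly stay above -1, and grey points were not called.

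Sequence windows from the promoters of responding genes are shown first, for immediate early, MAP kinase feedback and NF-kappaB genes whose promoters held a well-known DNA element. The windows are 100 bases from the 250 bases upstream of a RefSeq transcription start, in GRCm38.p6, written on the strand of the gene. Capitals mark the element. The CArG box, to which SRF binds, was found in 1.47% of all promoter windows of that length. It was present in 3 of the 21 immediate early genes with a promoter in the table and in 1 of the 16 MAP kinase feedback genes. These 4 genes rose at 2 h, as given below. Egr2 lies on the plus strand at chr10:67537449-67537548, Srf on the minus strand at chr17:46556170-46556269, Zfp36 on the minus strand at chr7:28379232-28379331 and Dusp5 on the plus strand at chr19:53529028-53529127.
Egr2: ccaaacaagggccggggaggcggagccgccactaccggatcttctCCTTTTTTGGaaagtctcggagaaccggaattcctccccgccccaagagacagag
Srf: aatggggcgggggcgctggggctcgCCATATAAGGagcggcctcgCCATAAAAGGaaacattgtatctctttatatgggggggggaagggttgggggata
Zfp36: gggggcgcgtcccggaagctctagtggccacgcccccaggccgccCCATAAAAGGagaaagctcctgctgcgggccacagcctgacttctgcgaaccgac
Dusp5: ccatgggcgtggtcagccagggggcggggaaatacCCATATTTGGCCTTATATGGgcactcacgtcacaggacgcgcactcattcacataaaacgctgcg

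The full cyclic AMP element TGACGTCA, to which CREB and ATF proteins bind, was found in 1.55% of all promoters, in 2 of the 21 immediate early genes (Maff and Btg2) and in 3 of the 16 MAP kinase feedback genes (Dusp1, Dusp8 and Errfi1). Maff, Dusp1, Dusp8 and Errfi1 rose at 2 h and Btg2 fell, so the letters occurred in genes that moved in either direction. The windows shown are those of Maff (plus strand, chr15:79347420-79347519), Dusp1 (minus strand, chr17:26508562-26508661) and Dusp8 (minus strand, chr7:142095294-142095393), the last with a pair of elements.
Maff: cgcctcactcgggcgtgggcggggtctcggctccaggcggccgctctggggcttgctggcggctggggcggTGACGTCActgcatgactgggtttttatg
Dusp1: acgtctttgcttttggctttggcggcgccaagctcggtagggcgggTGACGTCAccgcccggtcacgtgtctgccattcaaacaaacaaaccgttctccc
Dusp8: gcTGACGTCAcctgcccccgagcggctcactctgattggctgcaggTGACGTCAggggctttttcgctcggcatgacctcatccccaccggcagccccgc

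The strict NF-kappaB decamer, which is the form in capitals in the Nfkb2 window, was found on either strand in 0.14% of all promoters and in 2 of the 22 NF-kappaB genes with a promoter in the table, Nfkb2 and Csf1. With the fifth base left free it was found in 0.356% of all promoters and in 6 of the 22, namely Csf1, Cxcl1, Cxcl2, Il6, Nfkb2 and Nfkbia; this looser form was chosen after the data were seen. Of these 6 genes Il6 was not called and the other genes rose. Shown are Cxcl1 (plus strand, chr5:90891129-90891228), Cxcl2 (plus strand, chr5:90903757-90903856), Nfkb2 (plus strand, chr19:46305680-46305779) and Nfkbia (minus strand, chr12:55492648-55492747), whose element reads on the opposite strand.
Cxcl1: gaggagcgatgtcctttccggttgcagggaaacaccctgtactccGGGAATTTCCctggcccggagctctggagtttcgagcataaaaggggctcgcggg
Cxcl2: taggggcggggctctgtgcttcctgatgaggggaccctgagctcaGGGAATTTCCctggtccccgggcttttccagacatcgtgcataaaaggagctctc
Nfkb2: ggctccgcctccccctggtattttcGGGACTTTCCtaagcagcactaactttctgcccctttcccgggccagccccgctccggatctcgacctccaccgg
Nfkbia: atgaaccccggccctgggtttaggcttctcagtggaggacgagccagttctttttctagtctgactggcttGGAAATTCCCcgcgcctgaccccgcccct

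Of the other motifs searched on both strands, the AP-1 element TGANTCA was in 6.75% of all promoters, in 6 of the 22 NF-kappaB genes and in none of the 21 immediate early genes. The E-box CACGTG was in 6.02% of all promoters and in 5 of the 21 immediate early genes, and the letters TGGAAA, the core of the element of the osmotic factor NFAT5, were in 18.6% of all promoters and in 2 of the 10 osmolyte genes with a promoter. The sterol element TCACNCCAC was in 1.05% of all promoters and in 1 of the 17 sterol synthesis genes. Of the 12 TGF-beta and BMP genes with a promoter in the table, none held the CArG box, the AP-1 element, either NF-kappaB form, the sterol element, the E-box or the NFAT5 core, and 1, Ltbp1, which was not called, held the cyclic AMP element. None held GTCTAGAC either, a palindrome bound by Smads that was in 0.167% of all promoters and was added after the data were seen. These matches describe letters in short windows only.

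Genes of TGF-beta and BMP signalling and its feedback mostly rose. Their list, labelled TGF-beta and BMP feedback, held genes that damp the pathway and Id genes. It also held the ligand gene Tgfb1, receptors and Smads that carry the signal. Of these carriers, Tgfbr1 and Smad3 were among the genes that rose. Of the 20 on the list, all tested, 15 were higher at 2 h and none was lower, against 9.35% higher among all genes tested. Their median log2 fold change was 0.78, and 14 of the 20 had all 2 h libraries above all 0 h libraries. The same count of 15 was found in each of the 17 alternative fits. Within the main fit 14 were called higher in WT and 14 in KO-labelled libraries, against 8.41% and 6.5% of all genes.

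Smad6 (chr9:63953076-64022059), an inhibitory Smad that acts mainly on BMP receptors, had the largest change of these genes. It stood at 2.895, 5.05 and 3.17 CPM in the WT and 5.69, 2.57 and 2.88 CPM in the KO-labelled libraries at 0 h. At 2 h it stood at 72.97, 66.7 and 68.8 CPM in WT and 57.4, 52.8 and 56.0 CPM in KO-labelled libraries. Every 2 h library was far above every 0 h library, for a log2 fold change of 4.07 ± 0.15 (edgeR adjusted p = 6.23e-27). Smad7, the inhibitory Smad that also blocks TGF-beta receptors, was between 8.69 and 15.7 CPM at 0 h and between 100.4 and 123 CPM at 2 h, a change of 3.22 ± 0.09 (edgeR adjusted p = 4.39e-32). Again no library of either time reached the other.

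The Id proteins, which lack a DNA-binding domain and sequester other helix-loop-helix factors, behaved alike. Id1 (chr2:152736251-152737410) had a lowest, median and highest level of 1.18, 1.53 and 2.51 CPM at 0 h and of 18.7, 22.3 and 25.96 CPM at 2 h, a log2 fold change of 3.76 ± 0.21. Id3 rose from between 5.94 and 12.0 CPM to between 50.9 and 65.0 CPM (2.72 ± 0.11), and Id2 (chr12:25093799-25097140) from between 85.0 and 134 CPM to between 351 and 387 CPM (1.85 ± 0.06). The edgeR adjusted p-values were 3.97e-20, 2.69e-25 and 5.91e-30, and for none of the 3 genes did the times overlap.

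The Ski family represses Smad-driven transcription. Skil (chr3:31095058-31122577) stood at 164, 161 and 158 CPM in WT and 179.6, 159.6 and 199.5 CPM in KO-labelled libraries at 0 h, and at 545, 559, 549, 573, 546 and 548 CPM at 2 h. The narrow 2 h range made it one of the best separated genes, at 1.70 ± 0.05 (edgeR adjusted p = 4.38e-32). Ski itself rose by less, from between 182 and 215 CPM to between 318 and 342 CPM (0.80 ± 0.05, edgeR adjusted p = 3.07e-17). Pmepa1, which sequesters receptor-bound Smads, rose from between 0.724 and 2.84 CPM to between 11.1 and 18.7 CPM (3.18 ± 0.23, edgeR adjusted p = 2.12e-16).

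Among the receptors, Tgfbr1 rose (0.59 ± 0.05), from between 168 and 223 CPM to between 252 and 306 CPM, and Bambi, a decoy receptor without a kinase, rose by 0.69 ± 0.13. Tgfbr2 (log2 fold change -0.08), Smad2 (0.02) and Smad4 (0.02), which carry the signal, and the ligand gene Tgfb1 (-0.03) did not pass the test. The ubiquitin ligases Smurf1 (0.39) and Smurf2 (0.57), which mark receptors and Smads for degradation, both rose. Smad3, which carries the TGF-beta signal (0.77), and the corepressor Tgif1 (0.78) rose as well.

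**Figure D2:**
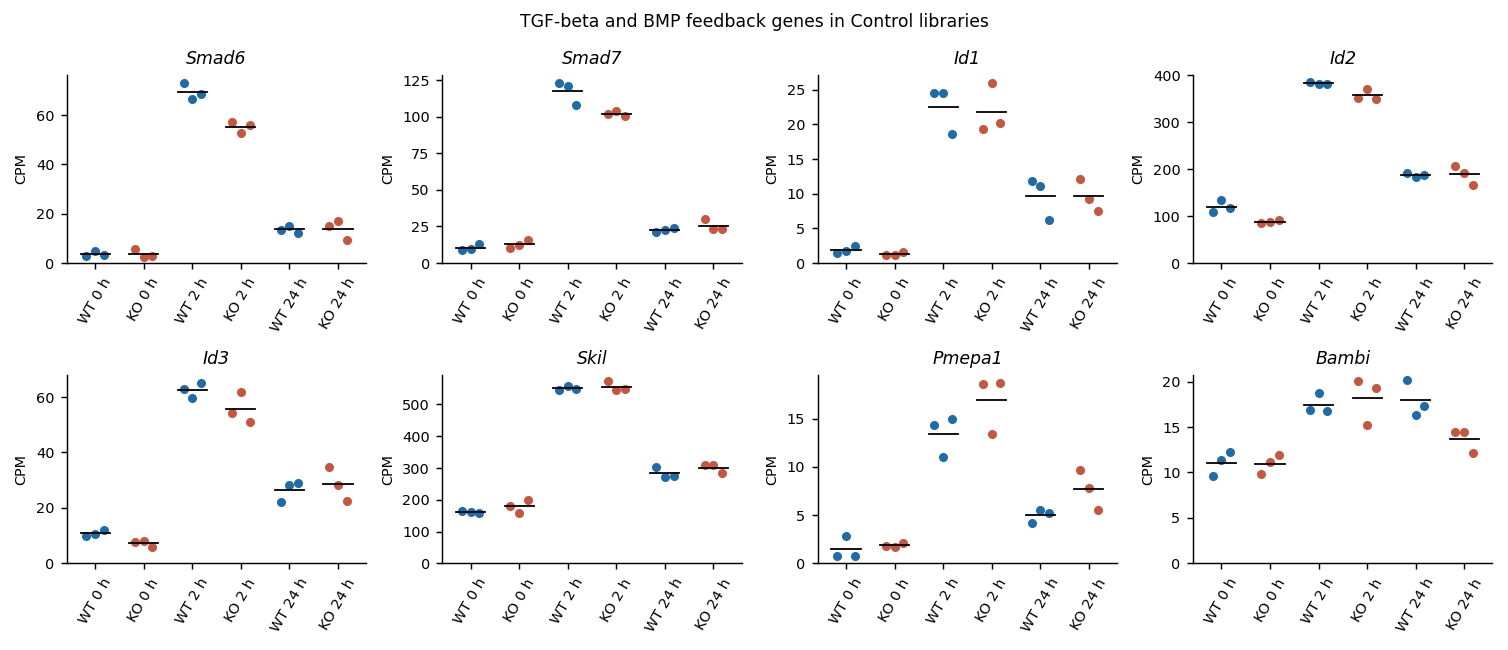
CPM (vertical axes, from 0) of 8 TGF-beta and BMP feedback genes in each Control library of WT (blue) and KO-labelled (red) cells at 0 h, 2 h and 24 h; points are libraries and black lines are group means of 3. In the 7 genes other than Bambi the 2 h libraries lie above all others, for example Smad7 between 100.4 and 123 CPM at 2 h against between 21.1 and 30.05 CPM at 24 h.

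By 24 h these genes had come down part of the way. The 24 h and 2 h comparisons share the 0 h libraries, so their values are set side by side only. Smad7 stood between 21.1 and 30.05 CPM at 24 h and Smad6 between 9.20 and 16.9 CPM, log2 fold changes of 1.03 and 1.87 against 0 h, where those at 2 h were 3.22 and 4.07. Id1 stood between 6.26 and 12.2 CPM (2.54) and Skil between 271 and 310 CPM (0.78). All 4 were thus still above every 0 h library, and 11 of the 20 genes on the list were called higher and 1 lower at 24 h, against 7.9% and 8.62% of all genes tested. In the 6 libraries of cells given palmitate for 2 h, which the comparison did not use, Smad7 was between 102 and 122 CPM and Skil between 528 and 563 CPM, near the Control 2 h levels.

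Several genes outside this list were among the 10 most significant that rose at least 2-fold without overlap, a set drawn from 111 such genes. Bcor (chrX:12036740-12160355), the corepressor of BCL6, gave the smallest adjusted p. It stood at 42.5, 43.9 and 45.1 CPM in WT and 37.7, 44.3 and 39.2 CPM in KO-labelled libraries at 0 h, and at 202, 219.6 and 220.2 CPM and 207, 185 and 192 CPM at 2 h (2.28 ± 0.06, edgeR adjusted p = 1.2e-32). Both genotypes moved by the same amount, with log2 changes of 2.28 and 2.26. Tent5c (chr3:100451628-100489324), a cytoplasmic poly(A) polymerase, rose from between 15.5 and 25.3 CPM to between 92.4 and 108 CPM (2.22 ± 0.07, edgeR adjusted p = 9.51e-30).

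Top1 (chr2:160645888-160722764), DNA topoisomerase I, rose from between 155 and 207 CPM to between 415 and 462 CPM (1.21 ± 0.04), and Il17ra (chr6:120463247-120487559), the receptor subunit for interleukin-17, from between 40.2 and 49.3 CPM to between 117 and 143 CPM (1.54 ± 0.06). Chd7 (chr4:8690406-8867659), a chromatin remodeller, rose from between 30.4 and 45.9 CPM to between 115 and 193 CPM (2.01 ± 0.07). For Chd7 the size differed by genotype. Its log2 fold change was 2.42 in WT and 1.59 in KO-labelled cells (edgeR adjusted p for the interaction = 0.000188), and the 3 WT libraries lay above the 3 KO-labelled ones at 2 h and below them at 0 h.

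Immediate early genes also rose together. Of 27 tested, 20 were higher and 2 lower at 2 h, against 9.35% and 7.36% of all genes, with a median log2 fold change of 0.74. The count of higher genes was 20 or 21 in all 17 alternative fits. In WT 19 and in KO-labelled libraries 17 were called higher, against 8.41% and 6.5% of all genes. Some members, such as the Nr4a receptors, Egr3 and Fosb, were at low levels. Nr4a3 (chr4:48045153-48086447), an orphan nuclear receptor, stood at 0.543, 0.631 and 0.794 CPM in WT and 1.37, 1.03 and 1.26 CPM in KO-labelled 0 h libraries, and at 16.5, 19.5, 5.63, 8.51, 7.52 and 10.2 CPM at 2 h (3.57 ± 0.29, edgeR adjusted p = 1.68e-14). WT 2 h library 3 was the lowest of the 2 h libraries and still lay above all 0 h libraries. Nr4a2 (2.84 ± 0.31) and Nr4a1 (2.49 ± 0.20) of the same family separated the times as well.

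Egr3, a zinc finger factor, was between 0 and 1.11 CPM at 0 h (14 counts in the 6 libraries) and between 1.02 and 6.39 CPM at 2 h (155 counts), so the lowest 2 h library overlapped the 0 h range. Fosb, a subunit of AP-1, had 4 counts in the 6 libraries of 0 h and 75 in those of 2 h, with 1 KO-labelled 2 h library at 0. At these depths the direction was clear for both (edgeR adjusted p = 1.11e-07 and 0.000588) but the size of the change was not well determined.

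The more abundant members changed by smaller amounts. Junb rose from between 61.0 and 68.2 CPM to between 142 and 169.7 CPM (1.28 ± 0.06, edgeR adjusted p = 7.85e-23) and Fos from between 45.2 and 58.1 CPM to between 73.6 and 95.5 CPM (0.69 ± 0.08, edgeR adjusted p = 6.65e-10). Egr1 rose from between 3.14 and 5.84 CPM to between 9.84 and 19.03 CPM (1.75 ± 0.19), and Maff, a small Maf factor with the cyclic AMP element shown above, from between 1.06 and 2.37 CPM to between 4.92 and 10.1 CPM (2.35 ± 0.19). The 4 genes had no overlap between times.

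The genes with CArG boxes shown above rose by different amounts. Zfp36, which binds and destabilises cytokine mRNAs, rose from between 50.02 and 79.1 CPM to between 114 and 146 CPM (1.01 ± 0.07, edgeR adjusted p = 1.56e-17). Egr2 (0.46 ± 0.11, edgeR adjusted p = 0.0017) and Srf itself (0.36 ± 0.09, edgeR adjusted p = 0.00186) rose by less and their 2 h libraries overlapped those of 0 h. Klf2, a factor that keeps macrophages quiescent, fell by 0.50 on the log2 scale and Btg2, an antiproliferative gene, by 0.38, both with overlapping libraries; the Btg2 call was lost in 7 of the alternative fits.

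MAP kinase feedback genes, most of which encode phosphatases or adaptors that switch the kinases off, were split. Of 18 tested, 10 rose and 3 fell, against 9.35% and 7.36% of all genes tested, with a median of 0.42. Dusp1, a nuclear phosphatase of p38 and JNK, was at 20.99, 16.4 and 22.5 CPM in WT and 16.7, 15.1 and 15.5 CPM in KO-labelled libraries at 0 h and between 51.0 and 61.6 CPM in all libraries at 2 h (1.62 ± 0.10, edgeR adjusted p = 1.77e-18). Its annotated span, chr17:26505590-26562128, overlaps Ergic1 on the other strand. Dusp5, a nuclear ERK phosphatase, rose from between 1.80 and 4.91 CPM to between 4.89 and 10.9 CPM (1.28 ± 0.25), with overlap between 1 KO-labelled library of each time. Dusp2 rose by 1.13 ± 0.29 and Dusp8, at or under 1.19 CPM at 0 h, by 2.14 ± 0.50. Dok1, Dusp7 and Spred1 fell, by 0.44, 0.35 and 0.31 on the log2 scale. Neither Spry1 nor Spry4 passed the filter on low counts.

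NF-kappaB feedback genes and cytokines gave 22 higher and 3 lower of 31 tested, with a median of 0.75. Among all genes tested 9.35% were higher and 7.36% lower. Csf3 did not pass the filter. The count of higher genes was between 16 and 23 over the alternative fits. It was 21 in WT and 14 in KO-labelled libraries, against 8.41% and 6.5% of all genes. The cytokine Tnf (chr17:35199381-35202007) was at 23.9, 16.4 and 17.2 CPM in WT and 18.3, 14.7 and 14.8 CPM in KO-labelled libraries at 0 h, and at 69.3, 76.6, 72.9, 80.3, 79.8 and 67.7 CPM at 2 h (2.10 ± 0.08, edgeR adjusted p = 1.34e-26). The ranges were well apart, and at 24 h Tnf was back between 17.7 and 23.1 CPM.

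The inhibitors rose with it. Nfkbia, which holds NF-kappaB in the cytoplasm, went from between 50.2 and 54.2 CPM to between 118 and 155 CPM (1.34 ± 0.06, edgeR adjusted p = 2.22e-23), and Tnfaip3, the ubiquitin editor A20, from between 33.8 and 43.6 CPM to between 96.6 and 103 CPM (1.42 ± 0.06, edgeR adjusted p = 3.83e-26). The subunit gene Nfkb2 rose by 0.69 ± 0.07, Relb by 1.09 and Bcl3, a nuclear cofactor of the p50 and p52 subunits, by 1.38.

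Cxcl16, a chemokine that is also a scavenger receptor, rose by 0.41 ± 0.05 (edgeR adjusted p = 6.15e-09), from group means of 191 and 199 CPM at 0 h to 249 and 269.6 CPM at 2 h in WT and KO-labelled cells, and Ccl9 fell by 0.28 on the log2 scale. Other cytokine genes were at low levels. Cxcl2, which draws neutrophils, was between 0.397 and 1.74 CPM at 0 h and between 5.93 and 11.3 CPM at 2 h (2.75 ± 0.31, edgeR adjusted p = 3.85e-10). Il1b was at 0.181, 0.158 and 0.132 CPM in WT and 1.18, 0.514 and 2.52 CPM in KO-labelled 0 h libraries, and between 2.71 and 4.48 CPM at 2 h (2.85 ± 0.45, edgeR adjusted p = 1.92e-06). The 2 h libraries were above all of 0 h, and the KO-labelled 0 h libraries above those of WT. Cxcl1 had 8 counts in all at 0 h and 34 at 2 h. Il6 (2.19), Il12b (2.51) and Il1a (0.93), all low, did not pass the test. Ccl3 fell by 0.34 and Nfkbiz by 0.28 on the log2 scale, against the trend of the list, and Nfkbiz lost its call in 8 alternative fits.

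Csf1, the macrophage growth factor, was called higher (1.42 ± 0.41, edgeR adjusted p = 0.0111) but its libraries overlapped. It stood at 0.905, 0.158 and 0.794 CPM in WT 0 h, 2.16, 4.45 and 5.58 CPM in KO-labelled 0 h, 0.581, 5.46 and 2.82 CPM in WT 2 h and 7.42, 6.80 and 4.41 CPM in KO-labelled 2 h libraries. The WT 2 h library with collagen transcripts, library 2, had the highest WT value, and without it the adjusted p was 0.12. The part of fibroblast RNA in this value was not tested.

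Of 30 interferon-stimulated genes tested, 4 were higher and 4 lower, against 9.35% and 7.36% of all genes, with a median of -0.01. Between 3 and 9 were higher and between 1 and 6 lower over the alternative fits. In WT 5 were higher and none lower by edgeR, with a median of 0.20. In KO-labelled libraries 3 were higher and 3 lower, with a median of -0.21. Among all genes 8.41% were higher and 5.85% lower in WT, and 6.5% and 5.59% in KO-labelled libraries. Cxcl10, a chemokine induced by NF-kappaB as well as by interferon, was the exception, going from between 0.171 and 0.789 CPM to between 4.30 and 7.42 CPM (3.45 ± 0.31, edgeR adjusted p = 5.4e-13) with no overlap. Irf1 rose by 0.40, and Ifit1 (0.02), Isg15 (-0.35) and Mx1 (0.35) did not pass the test. By 24 h 19 of the 30 were called lower than at 0 h, against 8.62% of all genes tested.

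Genes of fatty acid handling fell more often than they rose. Of 22 tested, 8 were lower and 2 higher, against 7.36% lower among all genes, with a median of -0.17. In 1 alternative fit 5 were lower. Within genotypes 9 were lower in WT and 4 in KO-labelled libraries, against 5.85% and 5.59% of all genes. Angptl4 (chr17:33773750-33781830), a secreted lipase inhibitor and PPAR target, was at 9.23, 18.8 and 11.2 CPM in WT and 12.8, 14.2 and 18.5 CPM in KO-labelled libraries at 0 h. At 2 h it was at 2.32, 2.48, 2.52, 1.81, 1.61 and 1.87 CPM (-2.75 ± 0.18, edgeR adjusted p = 1.68e-17), below every 0 h library. At 24 h it was still between 2.27 and 4.21 CPM. In cells given palmitate for 2 h it was between 15.8 and 23.5 CPM.

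Plin2, which coats lipid droplets, went from between 394 and 471 CPM to between 229.6 and 274 CPM (-0.72 ± 0.04, edgeR adjusted p = 7.51e-20), and was between 489.5 and 545 CPM with palmitate at 2 h. Pparg, the receptor itself, went from between 12.8 and 23.3 CPM to between 8.48 and 12.7 CPM (-0.73 ± 0.13, edgeR adjusted p = 2.25e-05). Pnpla2, the main triglyceride lipase, fell by 0.43 and Cpt1a, the gate of mitochondrial fatty acid import, by 0.26 on the log2 scale. Ppard went the other way, from between 37.8 and 45.7 CPM to between 73.2 and 88.9 CPM (0.91 ± 0.07, edgeR adjusted p = 4.36e-15). Cd36 (-0.13), Fabp5 (-0.08) and Acadm (-0.10) did not pass the test.

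Of the LXR targets, 3 of 15 rose and 2 fell, against 9.35% and 7.36% of all genes tested. Abca1, the cholesterol exporter, rose from between 445 and 628 CPM to between 911 and 1165 CPM (0.91 ± 0.04, edgeR adjusted p = 6.56e-23) and Arl4c by 1.03 ± 0.06. Fasn, fatty acid synthase, fell by 0.46. Abcg1, the partner exporter and one of the genes the study singled out, was called lower (-0.17 ± 0.05) with overlapping libraries and lost the call in 6 alternative fits. Of the other singled-out genes, which were chosen by the study on samples of this series, Fnip2 went from between 556 and 700.0 CPM to between 407 and 529 CPM (-0.44 ± 0.04, edgeR adjusted p = 3.52e-12) without overlap. Atf5 fell by 0.32, a call lost without KO-labelled 0 h library 3 (edgeR adjusted p = 0.0865) and without WT 2 h library 3 (edgeR adjusted p = 0.0521). Ghitm (-0.06), Syce2 (0.01) and Lrrc27 (0.10) did not pass the test.

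The 6 genes that fell at least 2-fold without overlap, all that met the rule, were Angptl4 and the 5 that follow. Bmt2 (chr6:13625673-13677966), a methyltransferase that inhibits mTORC1 as a sensor of S-adenosylmethionine, was at 108, 104 and 113 CPM in WT and 151, 126 and 161 CPM in KO-labelled libraries at 0 h and between 46.2 and 63.9 CPM at 2 h (-1.18 ± 0.06, edgeR adjusted p = 1.95e-22). It was back between 104 and 117 CPM at 24 h. St8sia4 (chr1:95587682-95667571), a polysialyltransferase, went from between 86.0 and 155 CPM to between 43.6 and 60.1 CPM (-1.08 ± 0.08). Kcnj2 (chr11:111066164-111076821), an inward rectifier potassium channel, went from between 97.5 and 147 CPM to between 48.1 and 68.4 CPM (-1.01 ± 0.07), Rnf144b (chr13:47122656-47247991), a ubiquitin ligase, from between 15.3 and 18.6 CPM to between 6.97 and 10.8 CPM (-1.02 ± 0.12) and Lpar5 (chr6:125067920-125082472), a lysophosphatidic acid receptor, from between 12.0 and 17.8 CPM to between 4.06 and 9.50 CPM (-1.005 ± 0.16).

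Glucose-sensing and nutrient-withdrawal genes changed in both directions, with 4 of 15 higher and 6 lower, against 9.35% and 7.36% of all genes. Txnip, an inhibitor of glucose uptake that follows glucose supply, went from between 154 and 199.7 CPM to between 87.7 and 108 CPM (-0.80 ± 0.06, edgeR adjusted p = 3.51e-16), without overlap. Sesn1, a stress-induced brake on mTORC1, went from between 91.6 and 133 CPM to between 62.1 and 90.6 CPM. Arrdc3, an arrestin-domain protein related to Txnip, rose from between 8.83 and 21.04 CPM to between 41.7 and 61.4 CPM (1.78 ± 0.13, edgeR adjusted p = 1.56e-16), and Trib1 (1.16 ± 0.09) and the insulin receptor substrate Irs2 (1.05 ± 0.12) rose as well.

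Among stress pathways, 7 of 20 NRF2 targets rose and 5 fell, against 9.35% and 7.36% of all genes, with a median of -0.0013. Srxn1, sulfiredoxin, rose from between 316 and 362 CPM to between 469 and 564 CPM (0.64 ± 0.05), while Hmox1 (0.01) and Nqo1 (-0.15) did not pass the test. Of 23 integrated stress response genes 5 rose and 1 fell, with Cebpb at 0.91 ± 0.07, Cebpg at 0.48 ± 0.07 and Atf4 at 0.43 ± 0.05. The other 17 did not pass the test, among them Ddit3 (0.19), Asns (0.16), Chac1 (0.34), Psat1 (-0.11) and Ppp1r15a (-0.15). Of 20 genes of ER chaperones and the unfolded protein response 1 rose and 2 fell, and of 18 heat shock genes 1 rose and 2 fell. These last 2 shares were near those of all genes.

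Of 14 glucocorticoid-responsive genes 6 rose and 1 fell. Sgk1, a kinase that regulates ion transport, rose from between 47.8 and 92.8 CPM to between 159 and 190.4 CPM (1.31 ± 0.07, edgeR adjusted p = 8.64e-21). Rhob, a small GTPase, rose from between 91.9 and 148 CPM to between 242 and 261 CPM (1.06 ± 0.05). Another 7 did not pass the test, among them Fkbp5 (0.21), Tsc22d3 (-0.10), Per1 (-0.13) and Zbtb16 (-0.39). Sgk1 and Dusp1, among the 6 that rose, are also counted under the osmolyte and MAP kinase feedback lists. Of 17 clock genes, 2 rose and 1 fell, shares (11.8% and 5.88%) near those of all genes. Bhlhe40, a repressor of the clock, rose from between 31.9 and 45.2 CPM to between 98.4 and 129.7 CPM (1.58 ± 0.08, edgeR adjusted p = 8.25e-22), Per2 by 0.96 ± 0.17, and Dbp fell by 0.78. Of 18 p53 targets 5 rose and 2 fell, with Mdm2 at 0.80 ± 0.05 and Gadd45a at 0.90 ± 0.10. The other 11 did not pass the test, among them Ccng1 (-0.02), Bax (-0.08), Bbc3 (-0.16) and Zmat3 (-0.10). Of 12 genes for growth factors and colony-stimulating factor receptors 6 rose (between 3 and 7 over the alternative fits, and 3 in KO-labelled libraries) and 1 fell. Of 18 amino acid transporters 5 rose and none fell, with Slc7a8 at 0.89 ± 0.05. Of 21 SRF and cytoskeleton genes 6 rose, led by Filip1l (1.47 ± 0.07). For the lists of this paragraph, the shares among all genes tested were 9.35% higher and 7.36% lower.

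**Figure D3:**
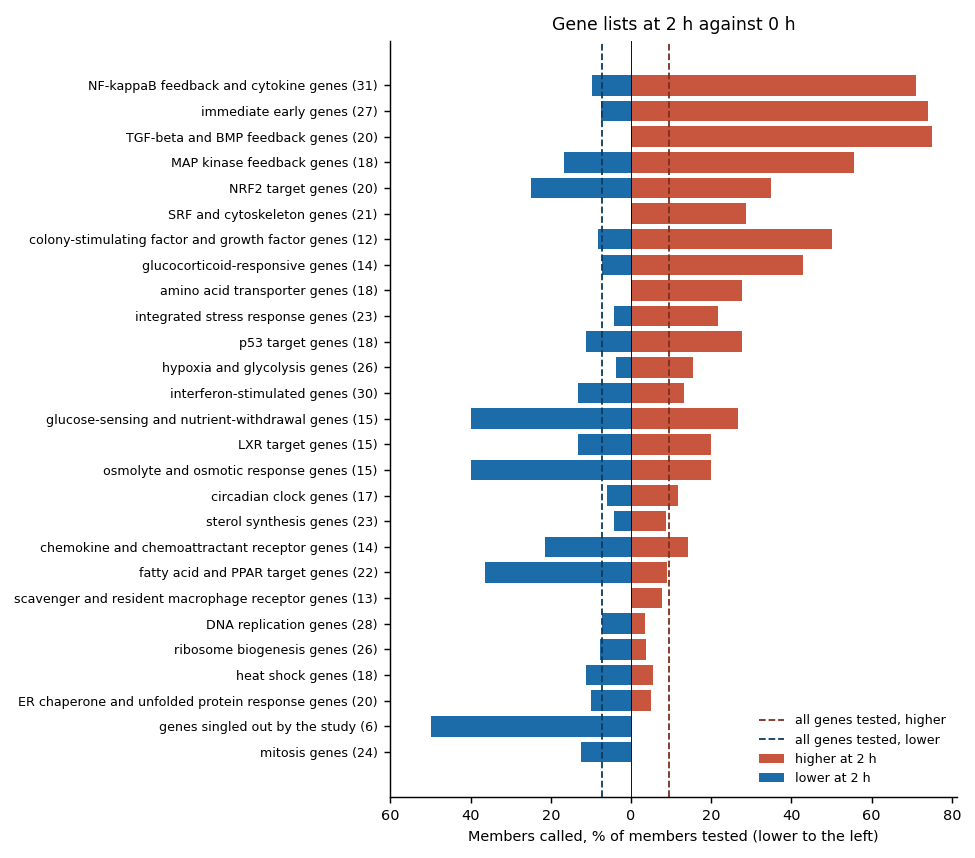
Share of the tested members of each of 27 gene lists that were called higher (red, to the right) or lower (blue, to the left) at 2 h, in % of members tested, whose number stands in brackets; dashed lines give the shares among all genes tested, 9.35% and 7.36%. TGF-beta and BMP feedback (15 of 20), immediate early (20 of 27) and NF-kappaB genes (22 of 31) lead on the right, and fatty acid genes (8 of 22) fall to the left.

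Proliferation genes changed little over both genotypes but not evenly. Of 24 mitosis genes none was higher in any edgeR or DESeq2 fit and 3 were lower (between 1 and 8 over the alternative fits), and of 28 DNA replication genes 1 was higher and 2 lower. In WT 8 mitosis and 8 replication genes were lower, with medians of -0.48 and -0.33. In KO-labelled cells 1 and 1 were lower, with medians of 0.07 and 0.09. Among all genes tested 5.85% were lower in WT and 5.59% in KO-labelled cells. Over both genotypes 9.35% were higher and 7.36% lower. Only 1 mitosis and 2 replication genes passed the interaction test. Plk1, a mitotic kinase, was among the 3 mitosis genes called lower over both genotypes and had no interaction call. Its log2 changes were -0.92 in WT and -0.34 in KO-labelled cells. It stood at 10.5, 8.84 and 10.8 CPM in WT 0 h and 14.3, 14.2 and 7.74 CPM in KO-labelled 0 h libraries. At 2 h it stood at 5.03, 3.64 and 7.11 CPM in WT and 10.9, 8.95 and 8.82 CPM in KO-labelled libraries. Histone genes, a family formed by symbol after the data were seen, gave 2 higher and 11 lower of 52, with 13 lower in WT and 1 in KO-labelled libraries; over the alternative fits between 4 and 11 were lower. Genes of cytosolic ribosomal proteins gave 0 higher and 3 lower of 75 by edgeR, with between 1 and 6 lower over the alternative fits, and complex I subunits 0 higher and 1 lower of 36.

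Macrophage markers changed modestly, with 1 of 16 higher and 3 lower, against 9.35% and 7.36% of all genes. Maf, a factor of macrophage identity, went from between 292 and 451 CPM to between 229.7 and 274 CPM (-0.61 ± 0.05, edgeR adjusted p = 9.93e-14) without overlap, Fcgr1 and Lyz2 fell by 0.29 and 0.26, and Cd14 rose by 0.49. No granulocyte precursor, monocyte, dendritic cell, B cell or T or NK cell marker was called over both genotypes. Of these 7, 8, 5, 1 and 1 were tested, and no erythroid marker passed the filter. Over the alternative fits, DESeq2 included, up to 2 granulocyte precursor, 1 monocyte and 1 dendritic cell marker were called. Within genotypes, 1 granulocyte precursor and 1 dendritic cell marker were lower in WT and 1 T or NK cell marker higher in KO-labelled libraries. For monocytes, 1 marker was higher in WT and 1 lower in KO-labelled libraries. Monocyte markers summed to between 128 and 141 CPM in WT 0 h and between 196 and 326 CPM in KO-labelled 0 h libraries. At 2 h the sums were between 148 and 197 CPM and between 143 and 163 CPM. None of the 5 fibroblast markers tested was called in the fit over 42 libraries, although their median log2 fold change was 2.26. Col1a1, a fibroblast collagen, was at or under 0.631 CPM in WT 0 h, at 26.3, 21.4 and 40.1 CPM in KO-labelled 0 h, at 0.387, 31.8 and 1.33 CPM in WT 2 h and at 59.2, 43.5 and 41.1 CPM in KO-labelled 2 h libraries. It was low in every WT library of 0 h and 2 h but library 2 of 2 h. Col1a1 had a change of 2.9 ± 1.30 (edgeR adjusted p = 0.125), of 1.11 without WT 2 h library 2, and was called when only the 12 libraries were fitted (edgeR adjusted p = 0.000156).

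The same question was then asked within each genotype, in the same fit over 42 libraries. These comparisons share no libraries but share the estimate of the spread. In WT 1657 genes were called (14.3% of those tested), 977 higher (8.41%) and 680 lower (5.85%). In KO-labelled cells 1406 were called (12.1%), 756 higher (6.5%) and 650 lower (5.59%). Both genotypes called 442 genes higher, which is 45.2% of the WT and 58.5% of the KO-labelled list, and 164 lower, which is 24.1% and 25.2%. Another 38 genes were called in opposite directions. A change differed between genotypes, by the interaction of genotype and time, for 554 genes (4.77%), 258 (2.22%) with a more positive change in KO-labelled cells and 296 (2.55%) with a more negative one. Of the 1942 genes called for 2 h against 0 h, 181 (9.32%) also had an interaction.

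**Figure D4:**
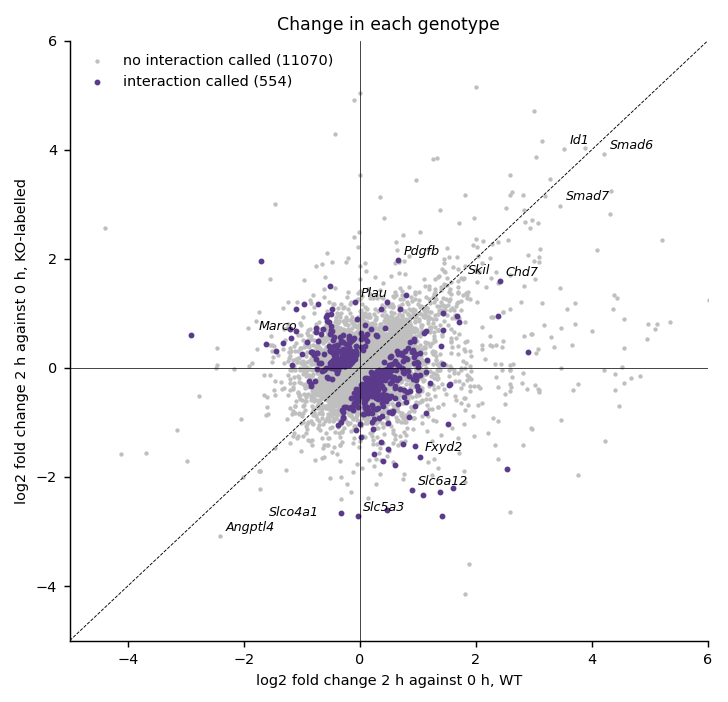
Log2 fold change of 2 h against 0 h in KO-labelled (vertical axis) against WT (horizontal axis) cells for each gene; purple points are the 554 genes with an interaction of genotype and time, the dashed line marks equal change and 5 genes lie outside the axes. Smad6, Smad7, Id1 and Angptl4 lie near the line, and Slc5a3 and Slco4a1 lie far below it, with changes of -2.72 and -2.65 in KO-labelled and -0.03 and -0.32 in WT cells.

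Among the named genes with an interaction, the largest differences between genotypes were those of Slc6a12, Slc5a3, Fxyd2 and Slco4a1. All but Fxyd2 are on the osmolyte and osmotic response list, although Slco4a1 is an organic anion transporter. Cells raise genes of osmolyte balance in hypertonic medium and lower them when tonicity falls. Of 15 list members tested, 3 rose and 6 fell over both genotypes, against 9.35% and 7.36% of all genes. Within genotypes 0 fell in WT and 6 in KO-labelled libraries. Among all genes 5.85% fell in WT and 5.59% in KO-labelled libraries. By the interaction test 5 of the 15 had a more negative change in KO-labelled cells, against 2.55% of all genes. The list was chosen with earlier results of these data known, so these counts are a description and an osmotic response was not tested. Slc5a3 (chr16:92058322-92087473), the inositol transporter, stood at 51.2, 42.6 and 45.9 CPM in WT 0 h and at 256, 109.9 and 289 CPM in KO-labelled 0 h libraries. At 2 h it stood at 45.7, 42.9 and 47.7 CPM in WT and 32.03, 30.8 and 36.3 CPM in KO-labelled libraries. Only the KO-labelled 0 h libraries were high, and of them library 2 was the lowest. The interaction was -2.69 (edgeR adjusted p = 1.28e-08). Slc5a3 overlaps Mrps6 on the same strand, so the share of reads given to each of the 2 genes is uncertain. Mrps6, a mitochondrial ribosomal protein gene, is on the osmolyte list too (-0.95, and -1.46 in KO-labelled cells). It is among the 6 that fell over both genotypes, so 1 signal may be counted under both genes.

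Slc6a12 (chr6:121343076-121365775), the betaine transporter, was likewise highest in the KO-labelled 0 h libraries but rose in WT (0.91), at 12.3, 11.8 and 9.92 CPM in WT 0 h, 93.2, 31.2 and 126 CPM in KO-labelled 0 h, between 20.02 and 22.2 CPM in WT 2 h and between 16.5 and 19.5 CPM in KO-labelled 2 h libraries. Slco4a1, an organic anion transporter, was between 32.9 and 49.7 CPM in WT 0 h, at 294, 117 and 358 CPM in KO-labelled 0 h and between 31.4 and 42.6 CPM in all 2 h libraries. Fxyd2 (chr9:45399669-45410278), the gamma subunit of the sodium pump, was between 59.7 and 63.0 CPM in WT 0 h, at 253, 152 and 277 CPM in KO-labelled 0 h, between 116 and 133 CPM in WT 2 h and between 62.8 and 78.5 CPM in KO-labelled 2 h libraries. In each gene the highest values belong to KO-labelled 0 h libraries 1 and 3. Akr1b3, aldose reductase, which makes sorbitol, fell in KO-labelled cells (-0.72) and stood at -0.03 in WT. Nfat5, the factor that drives these genes, was between 71.8 and 81.8 CPM in WT 0 h and between 106 and 116 CPM in KO-labelled 0 h libraries with a change of 0.48 in WT and -0.01 in KO-labelled cells. Its change averaged over the genotypes was 0.23 ± 0.08 (edgeR adjusted p = 0.0435), a call lost in 10 alternative fits.

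Spen, a large transcriptional corepressor, and Marco, Ccng1, Plau and Pdgfb complete the genes with the smallest interaction p-values. Spen was at 353, 351 and 343 CPM in WT 0 h, 513, 434 and 538 CPM in KO-labelled 0 h, 473, 488 and 462 CPM in WT 2 h and 425, 414 and 427 CPM in KO-labelled 2 h libraries, an interaction of -0.67 (edgeR adjusted p = 1.5e-06). Marco, a scavenger receptor, was at 475, 376 and 469 CPM in WT 0 h, 204, 264 and 191 CPM in KO-labelled 0 h, 317, 288 and 329 CPM in WT 2 h and 358, 398 and 367 CPM in KO-labelled 2 h libraries (1.27, edgeR adjusted p = 2.56e-08). It fell in WT and rose in KO-labelled cells. Pdgfb, a growth factor, rose in both, by 0.66 in WT and 1.98 in KO-labelled cells.

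In these genes the genotypes stood far apart at 0 h and close together later. For the 554 interaction genes the median absolute log2 difference between KO-labelled and WT means was 0.41 at 0 h. It was 0.15 at 2 h and 0.07 at 24 h, against 0.18, 0.12 and 0.10 over all genes at the 3 times. The 0 h and 2 h levels chose the genes, and the 24 h levels did not. A call also depends on depth and on the spread over all 42 libraries, so the 24 h value is not fully free of that choice. Sterol synthesis genes gave 7 lower in WT and 3 higher in KO-labelled libraries of 23, with 3 interactions. Among all genes 5.85% were lower in WT and 6.5% higher in KO-labelled libraries. Scavenger and resident macrophage receptors gave 6 more positive and 1 more negative interaction of 13, and ER chaperones 6 more positive of 20, against 2.22% more positive and 2.55% more negative among all genes tested. Each genotype had 1 set of 0 h cultures. A difference of genotype and a difference of those cultures, WT or KO-labelled, cannot be told apart.

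**Figure D5:**
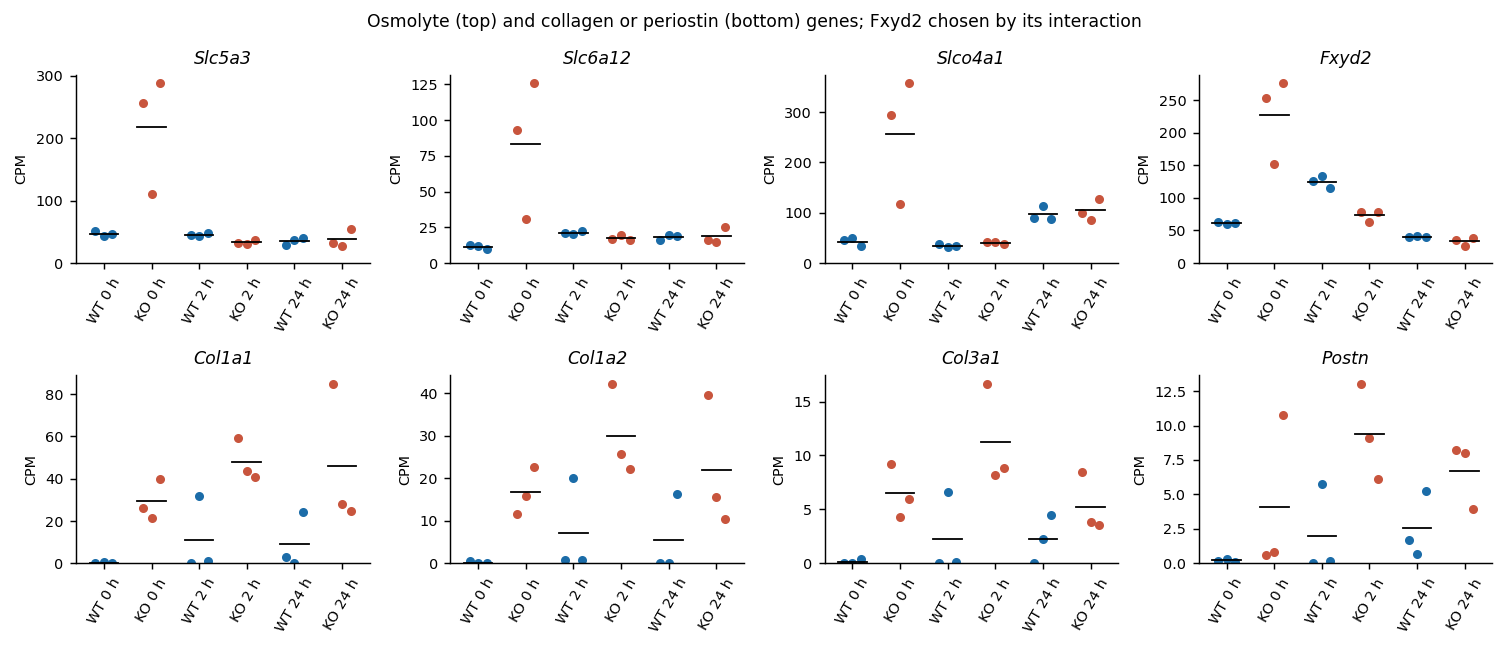
CPM (vertical axes, from 0) of Slc5a3, Slc6a12, Slco4a1 and Fxyd2 (top) and of the fibroblast genes Col1a1, Col1a2, Col3a1 and Postn (bottom) in each Control library of WT (blue) and KO-labelled (red) cells at 0 h, 2 h and 24 h; points are libraries and black lines are group means of 3. The top genes are high in the KO-labelled 0 h libraries, for example Slc5a3 at 256, 109.9 and 289 CPM, and the bottom genes are low in WT libraries except library 2 of 2 h, where Col1a1 was 31.8 CPM, and a library of 24 h.

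Most genes called at 2 h were not called at 24 h against 0 h in untreated culture. Of the 1087 genes higher at 2 h, 388 were also called higher at 24 h against 0 h, 51 lower and 648 were not called, and their median log2 fold change went from 0.44 to 0.17. Of the 855 genes lower at 2 h, 293 were also lower at 24 h, 19 higher and 543 not called, with medians of -0.31 and -0.15. Of the 189 genes that rose at least 2-fold, 85 remained called higher at 24 h. Both comparisons use the same 0 h libraries, so these counts describe where the 2 h genes stood later and are not independent of the first comparison. The genes were also chosen by their 2 h change, and that choice alone can make the 24 h medians smaller. The 24 h libraries were not tested against those of 2 h. Genes back near their 0 h levels included Tnf (0.26 at 24 h), Dusp1 (-0.02) and Sgk1 (0.09), and genes still changed included Id1 (2.54), Smad6 (1.87), Angptl4 (-2.06) and Plin2 (-1.02).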

How the data were processed

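Total RNA libraries (stranded, ribodepleted) were sequenced in pairs; the authors aligned reads to mm10 with STAR 2.7.3a after fastp 0.19.11 and deposited raw counts per gene, 37310 rows by 42 libraries. The annotation release and whether the strand was used in counting were not given in the sources used here. Columns repeat the group name, so library numbers follow column order and only name a library; 0 columns were left unmapped. Positions and symbols came from GENCODE M21 (GRCm38), and promoters from RefSeq (GRCm38.p6).

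The counts were filtered with filterByExpr, scaled by TMM and fitted with edgeR 4.0.16 (R 4.3.3) with a mean for each of the 14 groups of 3 libraries. Contrasts averaged the change over the genotypes; p-values were Benjamini-Hochberg adjusted over all genes tested. The script was tested on simulated data. Same-group libraries were compared by chi-square over genes, and none of the 12 pairs agreed within sampling noise (between 2.32 and 6.62 per degree of freedom). Junb, Dusp1, Cebpb, Irf1, Spen, Dbp, Atf5, Filip1l, Syce2 and Irf5 overlap a counted gene on the other strand, so their reads may not be told apart. Counting error alone limits the precision at low CPM.

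Named genes were, in each direction, up to 10 called genes ranked by adjusted p, with at least 5 CPM on average, at least a log2 change of 1 and no overlap of the 6 libraries of each time (6 genes qualified for the lower direction); up to 4 called members of each list; 4 interaction genes in each direction; and Irf5, Lyz2 and the genes the study singled out. Id3, Ski, Tgfbr1, Bambi, Nfkbia, Tnfaip3, Nfkb2, Cxcl1, Egr1, Egr2, Srf, Zfp36, Fos, Junb, Maff, Nr4a1, Btg2, Klf2, Nfkbiz, Ccl3, Akr1b3, Nfat5 and list members given by a log2 value alone were chosen after their values were seen. All members and lists were chosen with earlier results of these data known, so no list has a p-value of its own. Gene families by symbol, the looser NF-kappaB form and GTCTAGAC were added after the data were seen.

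Alternatives were DESeq2 1.42.0, its size factors in edgeR, no filter beyond 1 count, the compared libraries only and an additive fit. Each library was also left out in turn. The values given for each genotype came from the main fit. Fits on the libraries of 1 genotype only called 1959 genes in WT and 1349 in KO-labelled cells. Other treatments were not analysed here, apart from palmitate levels at 2 h, and some genes that met these rules are not reported here.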

Additional observations from a re-analysis of the deposited data

Results flagged for a closer look

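The change from 0 h to 2 h differed between WT and KO-labelled cells, by the interaction of genotype and time in edgeR's quasi-likelihood fit, for 554 genes, among them the named genes that follow. All values are the log2 fold change in KO-labelled cells minus that in WT, with 3 libraries in each group and adjusted p under the 0.05 threshold.

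More negative in KO-labelled cells were the osmolyte and ion transport genes Slc6a12 (-3.15), Slc5a3 (-2.69), Fxyd2 (-2.66), Slco4a1 (-2.34), Sgk1 (-0.72) and Akr1b3 (-0.69). The same held for the transcriptional regulators Chd7 (-0.83), Spen (-0.67) and Cebpb (-0.46), the NRF2 targets Gclc (-0.76) and Osgin1 (-0.61), and Cd14 (-0.65), Pfkfb3 (-0.43) and Abcg1 (-0.39). In the KO-labelled 0 h libraries Slc5a3 was at 256, 109.9 and 289 CPM, where every other library of the comparison was at or under 51.2 CPM.

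More positive in KO-labelled cells were Pdgfb (1.31), Plau (1.29), Marco (1.27), Ccng1 (0.85), Cdkn1a (0.71), Rhob (0.53), Sesn1 (0.53), Slc7a8 (0.39), Msr1 (0.37) and Tgfbr1 (0.30). The interaction call was lost in 11 alternative fits for Tgfbr1, 9 for Cebpb (DESeq2 among them), 6 for Abcg1, 5 each for Slc7a8 and Sesn1, and 4 each for Osgin1 and Cd14. Of the 24 named genes with an interaction, 7 lost the call in at least 1 alternative fit and none changed sign. No group of the comparison has 4 or more libraries, so single libraries were not screened as outliers.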

How the results depend on the processing

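The 2 h against 0 h count of 1942 genes stayed within 1.5 times under other scaling, filtering, tools and samples: 1919 with DESeq2's size factors, 1773 without the filter, 1921 with DESeq2, 2063 with the compared libraries only and 1586 with the additive fit, of which 1538 were shared. With an absolute log2 fold change over 1 added, 210 genes remained. Leaving out 1 library gave between 1641 (without WT 2 h library 2) and 1914 genes. The counts were between 1170 and 1445 for WT, between 954 and 1410 for KO-labelled cells, and between 1633 and 1793 at 24 h. The share called higher was 56.0%, and between 56.2% and 61.4% over these fits.

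The interaction count of 554 was between 556 and 771 under other scaling, filtering, tools and samples, and depended on single libraries: it was 312 without KO-labelled 0 h library 3, 363 without its library 1, 351 without WT 0 h library 3, 347 without WT 2 h library 2 and 698 without KO-labelled 0 h library 2. Of the 148 named genes, 24 lost their call in at least 1 of the alternative fits and none reversed.

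No paired analysis was possible because the columns carry no replicate numbers. Depth limits the genes under about 1 CPM, such as Fosb, Cxcl1 and Il1b.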
